A study of Mus musculus with 6 samples.

Results

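Cytosolic and mitochondrial heat shock chaperones are a set of 37 genes among the 26437 genes of the series. They were chosen by name, as the HSP70 and HSP110 chaperones, J proteins, HSP90, cochaperones, small heat shock proteins, heat shock factors, mitochondrial chaperones and subunits of the chaperonin CCT, with *Hspa8* taken from a group of genes that the study picked on these samples, so that the direction of *Hspa8* is not independent evidence. The study asked which genes depend on retinoic acid in the forming mouse eye. RNA was taken at embryonic day 10 from the frontal part of the head, which holds both optic vesicles and the frontonasal region, in wild-type embryos and in embryos homozygous for a null allele of *Rdh10* (*Rdh10* KO), which encodes a retinol dehydrogenase that starts the synthesis of retinoic acid. The embryos came from matings of heterozygous parents in a background of Black Swiss mixed with C57BL/6, and the null allele was present in every cell, so that values are for the whole dissected tissue of embryos that lack the gene throughout. Each library was made from a pool of 3 embryos, and there were 3 libraries per genotype, so that 9 embryos stand behind each group.

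Chaperones bind unfolded or partly folded proteins and, with cycles of ATP hydrolysis and help from cochaperones, let them fold, move to another partner or be degraded. HSP70 receives its clients from J proteins, HSP90 acts later on kinases and steroid receptors, CCT folds actin and tubulin in a closed chamber, and HSPD1 with its lid HSPE1 does the same for proteins imported into mitochondria. Most members are expressed at all times in growing embryonic cells, while a few, such as the copies *Hspa1a* and *Hspa1b*, are nearly silent until heat shock factor 1 binds heat shock elements in their promoters.

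Values are normalized counts, the reads counted on a gene divided by 1 factor per library. Wild-type replicates 1 to 3 had 19089872, 17626842 and 20808237 counted reads, and *Rdh10* KO replicates 1 to 3 had 27101025, 18511484 and 16392777. For *Rdh10* itself, wild-type libraries had 399, 342 and 381 normalized counts, and *Rdh10* KO libraries had 183, 142 and 181. The groups of *Rdh10* did not overlap, as the labels require, at a log2 fold change of −1.16 (limma, SE 0.13, adjusted p = 7.35e-05), and transcript from the allele was still counted. Log2 fold changes are *Rdh10* KO minus wild-type on the log2(normalized counts + 0.1) scale. For genes with few reads they can be larger or smaller than the ratio of the group means gives. A member was called lower or higher at an adjusted p under 0.05, with p-values adjusted over all 22921 genes tested. An exact permutation test of 3 libraries against 3 cannot give a p below 0.1, which is its value for every member whose groups did not overlap.

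The labelled tissue was checked with marker genes. Markers of optic vesicle and retina summed to 4657, 4624 and 4779 normalized counts in wild-type libraries and to 3089, 4809 and 4801 in *Rdh10* KO libraries. These sums hide opposite calls, as *Lhx2*, the most abundant per length, was lower (limma, log2 fold change −0.79, adjusted p = 0.00939) and *Rax* and *Six3* were higher. The groups of *Rax* and *Six3* overlapped, and DESeq2 called 0 of these 7 markers lower. Markers of craniofacial mesenchyme summed to between 11050 and 11420 in wild-type and between 9826 and 10140 in *Rdh10* KO. Of these 6 markers *Alx1* and *Alx4* were lower, and the other 4, with *Twist1* the most abundant per length, were not called. In the sums for optic vesicle and blood, *Rdh10* KO replicate 1 was the lowest library. Its markers of embryonic blood, led by *Hbb-bh1*, summed to 49400, against 116200 and 151500 in the other *Rdh10* KO libraries and 97600 to 131100 in wild-type. *Rdh10* KO libraries also differed from each other more than wild-type libraries did, as chi-square over degrees of freedom was 12.5 to 17.4 for their pairs, with replicates 1 and 3 furthest apart, and 2.73 to 5.61 for wild-type pairs. Without *Rdh10* KO replicate 1 the counts of called members were 15 lower and 6 higher, against 13 and 6 with it.

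Heat shock factors bind inverted repeats of the unit nGAAn, and the upstream sequences of members hold such repeats. The letters GAANNTTC and TTCNNGAA, each of which reads the same on both strands, were searched in windows of 250 bases before to 50 bases after each start site in RefSeq (GRCm38.p6). Of the 37 members, 30 had an entry, and 16 of these 30 (53.3%) held a match, against 17.0% of the 27025 genes with an entry. *Hspa8*, *Hsp90aa1*, *Hsp90ab1*, *St13*, *Hsf1*, *Hspa9* and *Cct4* had no entry in the set of start sites used. Repeats of 3 units, GAANNTTCNNGAA or TTCNNGAANNTTC, were found in 5 of the 30 (16.7%), against 0.662% of all. A match is a description of the sequence and not a bound site. In 12 members a match lay wholly before a RefSeq start site. By the gene limits of GENCODE, which include starts further upstream, the matches of *Hspd1*, *Dnaja1*, *Dnajb6*, *Hsph1* and *Cct2* lie inside the gene. The matches of *Bag3*, called higher, and *Cct6a*, called lower, reach or follow the start site and are not shown. *Hsph1* also holds a match of 3 units in each of its entries, which reaches or follows the start site and is not shown. The windows below are those of called members with a match wholly before a start site, and of *Hspd1*, which shares its match with *Hspe1*. They show the matched letters in capitals with 20 bases on either side where the upstream part allows.
*Hspa1a* (chr17:34972233-34972280, minus strand): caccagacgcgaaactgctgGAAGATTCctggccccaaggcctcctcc
*Hspa1b* (chr17:34959315-34959362, minus strand): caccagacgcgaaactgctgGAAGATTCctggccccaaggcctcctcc
*Hsph1* (chr5:149636342-149636389, minus strand): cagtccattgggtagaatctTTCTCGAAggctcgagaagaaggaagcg
*Dnaja1* (chr4:40722324-40722371, plus strand): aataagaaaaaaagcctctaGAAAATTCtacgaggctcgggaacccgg
*Fkbp4* (chr6:128438780-128438827, minus strand): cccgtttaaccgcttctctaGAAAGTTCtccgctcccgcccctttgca
*Cdc37* (chr9:21150077-21150124, minus strand): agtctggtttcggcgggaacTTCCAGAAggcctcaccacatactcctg
*Hspd1* (chr1:55088039-55088096, minus strand): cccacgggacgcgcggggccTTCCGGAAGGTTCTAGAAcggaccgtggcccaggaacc
*Hspe1* (chr1:55088039-55088096, plus strand): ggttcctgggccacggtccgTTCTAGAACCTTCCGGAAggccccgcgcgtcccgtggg

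*Hspa1a* and *Hspa1b* show the same 48 letters, and over their whole windows 296 of 300 bases are the same and 4 differ. *Hspd1* and *Hspe1* lie head to head on chromosome 1 and read the same 18 matched bases, with 4 units, from opposite strands. The match of *Hspe1* begins 89 bases before its start site and that of *Hspd1* 144 bases before its own. The plot of matches by distance shows all 13 that lie wholly before a start site.

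**Figure D1:**
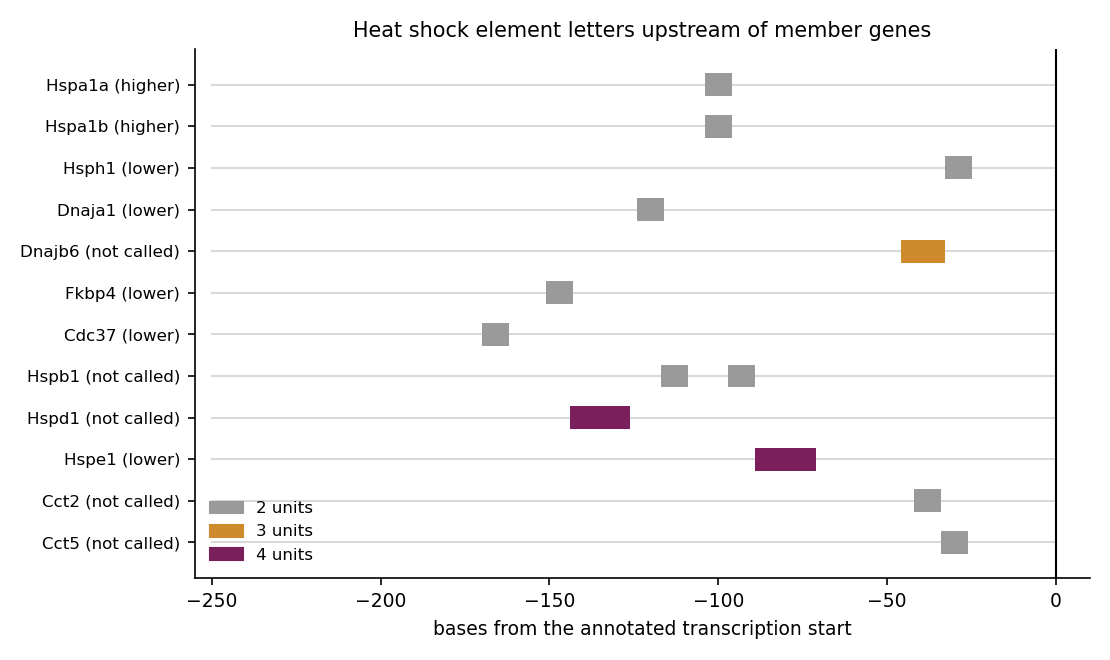
Matches to heat shock element letters in the 250 bases before the annotated start sites of the 12 members that hold one there, by distance from the start site in bases. Bars are coloured by the number of repeat units, and the call of each gene in *Rdh10* KO against wild-type stands in brackets. *Hspd1* and *Hspe1* hold the matches of 4 units.

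All 37 members passed the filter on low values, a mean above 0.5 over the 6 libraries. In *Rdh10* KO tissue 13 members (35.1%) were lower and 6 (16.2%) were higher, against 9.12% of all tested genes lower and 10.3% higher. Genes with more reads are called more often, and 29 of the 37 members had a mean above 1000 normalized counts. Of these 29, 13 (44.8%) were lower and 3 (10.3%) higher, against 22.8% lower and 19.0% higher of the 4820 tested genes with such a mean. The members counted as lower include *Hspa8*, whose direction is not independent evidence. The median log2 fold change was −0.18 over the members and 0.00 over all tested genes (−0.21 and −0.04 for a mean above 1000). Every *Rdh10* KO library was below every wild-type library in 18 members and above in 7, and this held for 17.0% and 17.6% of all tested genes. For a mean above 1000 it was 17 and 4 of the 29 members, and 1637 and 1259 of the 4820 genes. With the study's cut-off of 0.85 on the log2 scale added, 2 members were higher, *Hspa1a* and *Hspa1b*, and 0 were lower, against 2.41% and 0.886% of all tested genes. No member was lower past that cut-off at an unadjusted p under 0.05 with limma, nor at an adjusted p under 0.05 with edgeR or DESeq2. In bulk tissue, fewer cells of a type and less RNA per cell cannot be told apart.

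Most of these differences were small, and 9 of the 19 calls held when any single library was left out, those of *Hspa1a*, *Hspa1b*, *Hsph1*, *Dnaja1*, *Dnaja2*, *Hsp90aa1*, *Ahsa1*, *Bag3* and *Hspe1*. The number of members called lower was 6 without wild-type replicate 2 and 7 without wild-type replicate 1, and 3 members were higher without any one of the wild-type libraries. With limma fitted without the intensity trend, 0 members were lower and 1, *Hspa1a*, was higher, with 11 lower and 5 higher at an unadjusted p under 0.05. The edgeR likelihood ratio test, which the study used, gave 11 lower and 5 higher, without the calls of *Hspa8*, *Stip1*, *Cdc37*, *St13*, *Hspa9* and *Cct6a*. The edgeR quasi-likelihood test gave 16 lower and 7 higher, and DESeq2 17 and 7. Over all tested genes the likelihood ratio test called 2240 lower and 2738 higher, the quasi-likelihood test 2190 and 2608, and DESeq2 2242 and 2461. Quantile normalization ended the calls of *Hspa8*, *Hsp90ab1*, *Fkbp4*, *Cdc37*, *Cct3* and *Cct6a*, and TMM scaling those of *Hspa8* and *Cct6a*.

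**Figure D2:**
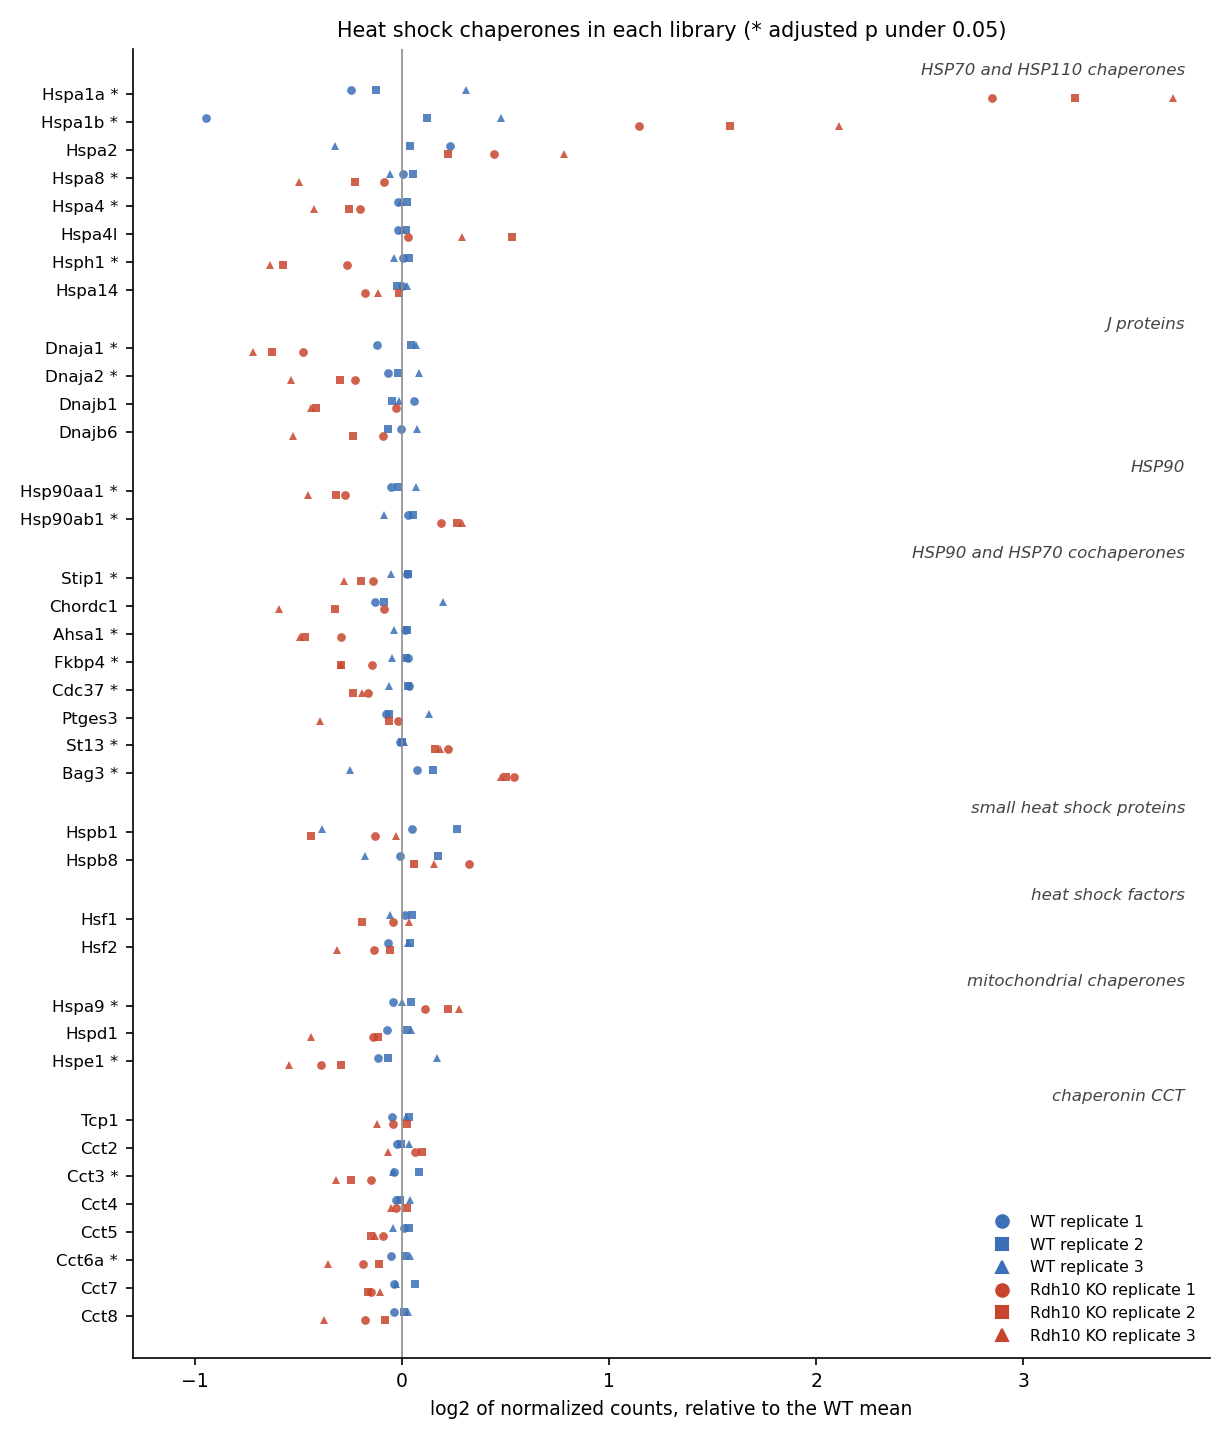
Normalized counts of the 37 members in each library on the log2 scale, relative to the mean of the wild-type libraries, by role. Each point is a library, and stars mark members with an adjusted p under 0.05. The *Rdh10* KO libraries lie above the wild-type mean by the most in *Hspa1a* (43.7 to 80.0 normalized counts against a mean of 6.07), and all 3 lie to the left of the wild-type libraries in 18 members.

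The largest differences among members were in the heat-inducible HSP70 copies. *Hspa1a* (chr17:34969190-34972156, minus strand) had 5.12, 5.56 and 7.52 normalized counts in wild-type replicates 1 to 3 and 43.7, 57.6 and 80.0 in *Rdh10* KO replicates 1 to 3. The lowest *Rdh10* KO library was above the highest wild-type library, and the values rest on 5, 5 and 8 reads in wild-type and 61, 54 and 68 in *Rdh10* KO. The mean was 9.96 times that of wild-type, at a log2 fold change of 3.27 (limma, SE 0.40, adjusted p = 0.0001). *Hspa1b* (chr17:34956436-34959238, minus strand) had 13.3, 27.8 and 35.7 normalized counts in wild-type and 56.6, 76.8 and 110.6 in *Rdh10* KO. Its groups did not overlap either, and the log2 fold change was 1.72 (limma, SE 0.37, adjusted p = 0.00463).

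The copies share sequence. Of all runs of 50 bases in *Hspa1a* transcripts 58.8% also occur in *Hspa1b*, and 62.3% of those of *Hspa1b* occur in *Hspa1a*, so that reads may have been divided between them and the value of either alone is uncertain. *Hspa1a* also overlaps *Gm20481* on the other strand. Summed, the copies had 18.4, 33.4 and 43.3 normalized counts in wild-type and 100.2, 134.4 and 190.6 in *Rdh10* KO, again without overlap. The sum had a log2 fold change of 2.19 (limma, SE 0.32, adjusted p = 0.000335). *Hspa1a* made up 16.7% to 27.8% of the sum in wild-type and 42.0% to 43.6% in *Rdh10* KO. Even in *Rdh10* KO the copies were the members with the lowest levels per length, at a mean of 1.05 FPKM for *Hspa1a* and 1.49 FPKM for *Hspa1b*, against 274 FPKM for the constitutive *Hspa8*.

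Genes that respond within minutes to many stimuli also differed between the groups. Of the 10 immediate early genes listed, 7 were higher and 1, *Jun*, whose groups overlapped, was lower, against 10.3% and 9.12% of all tested genes. With edgeR and with DESeq2, 6 were higher and 2 lower. *Ier3* had 37.9, 15.6 and 21.6 normalized counts in wild-type and 164.0, 467.2 and 402.4 in *Rdh10* KO, and *Atf3* had 64.5, 90.1 and 85.6 against 218.4, 282.7 and 270.6. Among *Rdh10* KO libraries, replicate 1 had the lowest values of *Ier3*, *Atf3* and both HSP70 copies, while the highest were in replicate 2 for *Ier3* and *Atf3* and in replicate 3 for the copies. *Fos* had a log2 fold change of 2.11 (limma, adjusted p = 0.0141) and *Jun* of −0.29 (limma, adjusted p = 0.0417). Among stress genes outside the chaperones, *Hmox1*, the inducible heme oxygenase, had a log2 fold change of 0.90 (limma, SE 0.12, adjusted p = 0.000153). The part of handling before RNA extraction in these values was not tested.

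**Figure D3:**
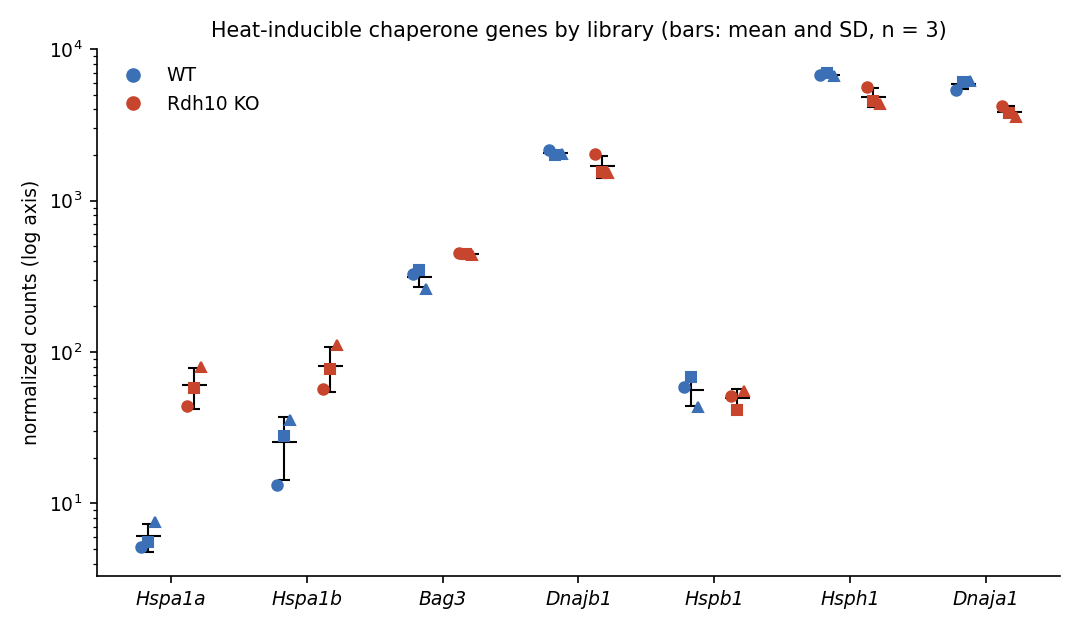
Normalized counts of 7 members known to respond to heat, on a log axis. Points are libraries, with a different shape for each replicate, and bars give the mean and SD of 3 libraries. *Hspa1a*, *Hspa1b* and *Bag3* were higher in *Rdh10* KO, *Hsph1* and *Dnaja1* were lower, and *Dnajb1* and *Hspb1* did not pass the test. *Hsp90aa1*, also known to respond to heat, was called lower and is not among the 7.

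The constitutive HSP70, *Hspa8* (chr9:40800984-40810087, plus strand), folds new proteins and uncoats clathrin vesicles. Its normalized counts were 27615, 28603 and 26434 in wild-type and 25925, 23564 and 19489 in *Rdh10* KO. The groups did not overlap, *Rdh10* KO replicate 1 was the closest to wild-type, and the log2 fold change of −0.27 (SE 0.09) was at the edge of the threshold (limma, adjusted p = 0.0490). It missed the threshold without any of the libraries other than *Rdh10* KO replicate 1, with adjusted p-values of 0.148, 0.200 and 0.0868 without wild-type replicates 1 to 3 and 0.0902 and 0.107 without *Rdh10* KO replicates 2 and 3. Without *Rdh10* KO replicate 3 the log2 fold change of *Hspa8* was −0.16. As the study picked *Hspa8* on these samples, this value is not independent evidence, and it may not hold all reads of the sequence. A processed pseudogene, *Gm15459*, shares 34.6% of the 50-base runs of *Hspa8* and had 11913, 12021 and 11315 normalized counts in wild-type and 7321, 5703 and 9008 in *Rdh10* KO. *Gm15459* was lower by a log2 fold change of −0.70 (limma, SE 0.12, adjusted p = 0.00104), and its groups did not overlap. Summed with *Hspa8*, the counts were 39530, 40620 and 37750 in wild-type and 33250, 29270 and 28500 in *Rdh10* KO. The sum had a log2 fold change of −0.38 (limma, SE 0.07, adjusted p = 0.0024), and its groups did not overlap. Which of these reads came from *Hspa8* transcripts was not tested. Among other members that share over 10% of their 50-base runs with other genes, the copies of *Hsp90aa1*, *Hspd1*, *Dnaja1*, *Dnajb6* and *Hspb1* that share most had at most 1.75% of the member's mean. The copies that share most with *Ptges3* and *Hspe1* were not analysed here.

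HSP110 proteins exchange the nucleotide of HSP70 and are distant relatives of it. *Hsph1*, whose window is shown above, had 6795, 6943 and 6610 normalized counts in wild-type and 5635, 4556 and 4358 in *Rdh10* KO. All *Rdh10* KO libraries were below all wild-type libraries, by 28.5% of the mean, at a log2 fold change of −0.49 (limma, SE 0.09, adjusted p = 0.00133). *Hspa4* had 13557, 13939 and 13701 normalized counts in wild-type and 11928, 11479 and 10229 in *Rdh10* KO, at a log2 fold change of −0.30 (limma, SE 0.07, adjusted p = 0.00796). Its groups did not overlap, and its adjusted p was 0.0595 without wild-type replicate 2. Its paralog *Hspa4l* ranged from 1551 to 1594 in wild-type and from 1602 to 2272 in *Rdh10* KO, with a log2 fold change of 0.28 that did not pass the test (limma, adjusted p = 0.0707), and passed without *Rdh10* KO replicate 1 (log2 fold change 0.41, adjusted p = 0.00786) but was 0.16 without *Rdh10* KO replicate 2. The ratio of *Hspa4l* to *Hspa4*, in levels per length, was 0.0536 to 0.0537 in wild-type libraries and 0.0630, 0.0928 and 0.0881 in *Rdh10* KO. The wild-type ratios were nearly equal, and each *Rdh10* KO ratio was above them (exact permutation p = 0.1, two-sided, the smallest possible). *Hspa2*, an HSP70 best known from sperm cells, ranged from 56.4 to 82.9 and from 82.1 to 121.2, and *Hspa14*, a ribosome-bound relative, from 2725 to 2813 and from 2446 to 2742, with log2 fold changes of 0.50 and −0.10. Neither passed the test (limma, adjusted p = 0.135 and 0.349).

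J proteins bring clients to HSP70 and start its ATP hydrolysis. All 4 members of this group had a negative log2 fold change, and 2 were called lower, against 9.12% of all tested genes. For a mean above 1000 that share was 22.8%, and 2646 of those 4820 genes had a negative log2 fold change. With both forms of edgeR and with DESeq2, 3 of the 4 were called lower. *Dnajb1* was called lower in 10 of 19 other settings. *Dnaja1* had 5415, 6074 and 6180 normalized counts in wild-type and 4222, 3816 and 3580 in *Rdh10* KO. This was the lowest log2 fold change among members, −0.61 (limma, SE 0.08, adjusted p = 0.000152), and the groups were apart by more than the range within either. An exon of *Dnaja1* overlaps *Smu1* on the other strand, and whether strand was used in counting is not given in the sources used here. *Dnaja2*, its close relative, had 6523, 6730 and 7235 normalized counts in wild-type and 5828, 5550 and 4713 in *Rdh10* KO, without overlap, and a log2 fold change of −0.35 (limma, SE 0.08, adjusted p = 0.00735). *Dnajb1*, the heat-inducible J protein, ranged from 1991 to 2144 in wild-type and from 1517 to 2018 in *Rdh10* KO, where replicate 1 lay among the wild-type values. *Dnajb6*, which keeps polyglutamine proteins soluble, ranged from 1044 to 1147 and from 758.9 to 1026. Their log2 fold changes of −0.29 and −0.28 did not pass the test with all libraries (limma, adjusted p = 0.0523 and 0.0723) and passed it without *Rdh10* KO replicate 1 (log2 fold change −0.43 and −0.38, adjusted p = 0.00299 and 0.0251), but were −0.22 and −0.16 without *Rdh10* KO replicate 3.

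The HSP90 paralogs were called in opposite directions. *Hsp90aa1* (chr12:110690605-110702728, minus strand), the paralog known to respond to heat, had 28242, 28891 and 30704 normalized counts in wild-type and 24221, 23442 and 21338 in *Rdh10* KO. *Hsp90ab1* (chr17:45567775-45573271, minus strand), the constitutive paralog, had 92265, 93993 and 85354 in wild-type and 103077, 108752 and 110587 in *Rdh10* KO. In neither gene did the groups overlap. The log2 fold change was −0.35 for *Hsp90aa1* (limma, SE 0.07, adjusted p = 0.00287) and 0.25 for *Hsp90ab1* (limma, SE 0.07, adjusted p = 0.0228). The ratio of *Hsp90ab1* to *Hsp90aa1*, in levels per length, was 4.28, 4.26 and 3.64 in wild-type and 5.58, 6.08 and 6.79 in *Rdh10* KO, 1.51 times higher in the mean. All *Rdh10* KO ratios were above all wild-type ratios (exact permutation p = 0.1, two-sided, the smallest possible), and a ratio within a library shows that the paralogs changed unequally and not which of them changed. The call of *Hsp90ab1* was lost without any one wild-type library (adjusted p = 0.0719, 0.0675 and 0.0889 for replicates 1 to 3) and without *Rdh10* KO replicate 2 (0.0572). Under quantile normalization its log2 fold change was 0.08 (adjusted p = 0.522). *Hsp90aa1* shares 47.5% of its 50-base runs with pseudogenes, and *Hsp90ab1* 3.44%.

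**Figure D4:**
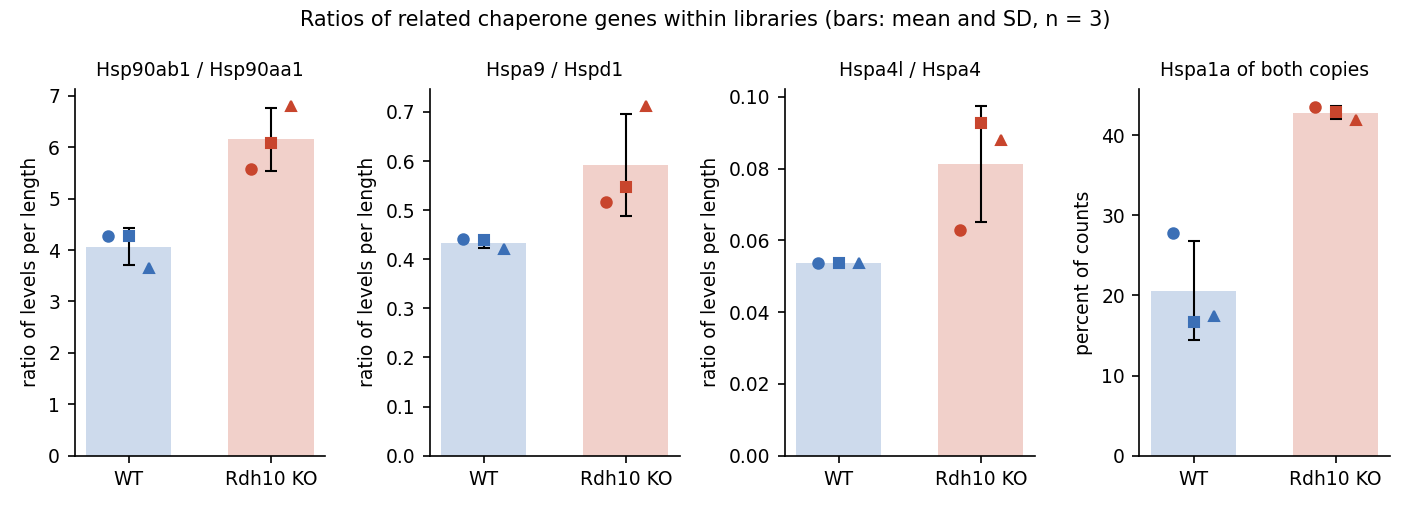
Ratios of related members within each library, from levels per length, and the share of *Hspa1a* in the sum of *Hspa1a* and *Hspa1b*. Points are libraries, and bars give the mean and SD of 3 libraries. *Hsp90ab1* over *Hsp90aa1* was 3.64 to 4.28 in wild-type and 5.58 to 6.79 in *Rdh10* KO.

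Cochaperones join HSP70 and HSP90 to each other and to their clients. Of 8 members, 4 were lower and 2 higher, against 9.12% and 10.3% of all tested genes. For a mean above 1000 these shares were 22.8% and 19.0%. *Ahsa1*, which speeds the ATPase of HSP90, had 4174, 4214 and 4029 normalized counts in wild-type and 3378, 2994 and 2944 in *Rdh10* KO, at a log2 fold change of −0.42 (limma, SE 0.07, adjusted p = 0.00107). The groups of *Ahsa1* were far apart for their spread. *Fkbp4*, an immunophilin of steroid receptor complexes, had 19131, 18990 and 18133 in wild-type and 16970, 15265 and 15289 in *Rdh10* KO (log2 fold change −0.24, SE 0.07, adjusted p = 0.0178, limma). *Stip1*, which carries clients from HSP70 to HSP90, had 10445, 10484 and 9885 in wild-type and 9324, 8938 and 8451 in *Rdh10* KO. *Cdc37*, which loads kinases on HSP90, had 8296, 8272 and 7756 in wild-type and 7229, 6881 and 7087 in *Rdh10* KO. In these genes too the groups did not overlap. The log2 fold changes were −0.21 for *Stip1* (limma, SE 0.06, adjusted p = 0.0363) and −0.20 for *Cdc37* (limma, SE 0.06, adjusted p = 0.0382). That of *Cdc37* lay between −0.369 and −0.151 over 19 other settings.

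The cochaperones that were higher work on HSP70. *Bag3*, a heat-inducible exchange factor that directs clients to autophagy, had 327.4, 346.1 and 261.4 normalized counts in wild-type and 452.5, 440.6 and 434.1 in *Rdh10* KO. The *Rdh10* KO values lay close together and above all wild-type values, at a log2 fold change of 0.52 (limma, SE 0.12, adjusted p = 0.00737). *St13*, which slows the release of nucleotide from HSP70, had 7782, 7852 and 7898 in wild-type and 9149, 8752 and 8898 in *Rdh10* KO, at a log2 fold change of 0.19 (limma, SE 0.06, adjusted p = 0.0406). It was the call of *St13* that a correction for GC content and length removed (log2 fold change 0.05). *Chordc1*, a zinc-binding partner of HSP90, and *Ptges3*, the p23 cochaperone, had overlapping groups and did not pass the test, with log2 fold changes of −0.33 and −0.16 (limma, adjusted p = 0.0609 and 0.296). *Chordc1* ranged from 2695 to 3379 in wild-type and from 1958 to 2775 in *Rdh10* KO, and passed without *Rdh10* KO replicate 1 (log2 fold change −0.45, adjusted p = 0.0176) but was at −0.20 without *Rdh10* KO replicate 3. *Ptges3* ranged from 5323 to 6152 and from 4271 to 5549, and its log2 fold change lay between −0.23 and −0.04 with single libraries left out. Leaving out single libraries ended some of these calls. For *Stip1* adjusted p was 0.144, 0.159 and 0.0552 without wild-type replicates 1 to 3, and 0.0658 and 0.0627 without *Rdh10* KO replicates 2 and 3. Without wild-type replicate 1, wild-type replicate 2 and *Rdh10* KO replicate 2 it was 0.0908, 0.0972 and 0.0579 for *Fkbp4* and 0.157, 0.163 and 0.0905 for *Cdc37*. The adjusted p of *St13* was 0.143, 0.140 and 0.0890 without wild-type replicates 1 to 3 and 0.0867 without *Rdh10* KO replicate 1.

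The small heat shock proteins, which hold unfolded proteins without ATP, and the heat shock factors were not called, with 0 of 2 in each group at an unadjusted p under 0.05 with limma, and 0 at an adjusted p under 0.05 with edgeR or DESeq2. *Hspb1* ranged from 43.3 to 67.9 normalized counts in wild-type and from 41.6 to 55.3 in *Rdh10* KO, and *Hspb8*, the partner of BAG3, from 309.4 to 395.1 and from 364.8 to 438.2. Their log2 fold changes were −0.18 (limma, SE 0.25, adjusted p = 0.693) and 0.18 (limma, SE 0.12, adjusted p = 0.328). *Hsf1*, the factor that drives the response to heat, had 1012, 1036 and 961.9 in wild-type and 972.4, 876.9 and 1027 in *Rdh10* KO. *Hsf2*, known from development, had 1176, 1266 and 1259 in wild-type and 1123, 1183 and 991.8 in *Rdh10* KO. The groups overlapped in both. The log2 fold changes were −0.07 (limma, SE 0.08, adjusted p = 0.650) for *Hsf1* and −0.17 (limma, SE 0.08, adjusted p = 0.195) for *Hsf2*. In 2 of 19 other settings *Hsf2* was called lower, and its log2 fold change reached −0.266. That of *Hsf1*, called in 0 of them, reached −0.204. RNA levels give no measure of the activity of these factors, which is set on the protein.

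The mitochondrial members did not move together. *Hspa9* (chromosome 18), the mitochondrial HSP70 that also pulls proteins through the inner membrane, had 10845, 11544 and 11172 normalized counts in wild-type and 12084, 13028 and 13529 in *Rdh10* KO. The groups did not overlap, and *Hspa9* was called higher, at a log2 fold change of 0.20 (limma, SE 0.07, adjusted p = 0.0434). *Hspe1* (chr1:55088132-55091307, plus strand) had 4978, 5151 and 6074 in wild-type and 4114, 4397 and 3703 in *Rdh10* KO. It was called lower, at a log2 fold change of −0.41 (limma, SE 0.09, adjusted p = 0.00453). *Hspd1* (chr1:55077835-55088243, minus strand), which shares the promoter shown above with *Hspe1*, had 15042, 16086 and 16295 in wild-type and 14318, 14595 and 11663 in *Rdh10* KO. Its groups did not overlap, but its log2 fold change of −0.23 (SE 0.08) did not pass the test (limma, adjusted p = 0.0674), and passed without *Rdh10* KO replicate 2 (log2 fold change −0.29, adjusted p = 0.0490) but was −0.13 without *Rdh10* KO replicate 3. Whether *Hspd1* and *Hspe1* differ in their change was not tested across genes, and their ratio per length was at most 1.74 in wild-type and at least 1.76 in *Rdh10* KO. The ratio of *Hspa9* to *Hspd1* per length was 0.442, 0.440 and 0.420 in wild-type and 0.517, 0.547 and 0.711 in *Rdh10* KO, where replicate 3 was the highest. The call of *Hspa9* was lost without wild-type replicates 1 to 3 (adjusted p = 0.178, 0.104 and 0.108) and without *Rdh10* KO replicates 2 and 3 (0.0952 and 0.0761). Exons of *Hspd1* and *Hspe1* overlap on opposite strands, and 39.7% and 18.4% of their 50-base runs occur in other genes, mostly pseudogenes.

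CCT is built from 8 different subunits, which makes its genes a case where members of a single complex can be set side by side. Their values lay between 10543 normalized counts (*Cct6a* in *Rdh10* KO replicate 3) and 15773 (*Tcp1* in wild-type replicate 2), and 7 of 8 had a negative log2 fold change. Of the 8, 2 (25.0%) were called lower, and in 5 every *Rdh10* KO library was below every wild-type library. Of the 4820 tested genes with a mean above 1000, 2646 had a negative log2 fold change and 22.8% were called lower. In 1637 of these 4820 genes every *Rdh10* KO library was below every wild-type library. *Cct3* had 12954, 14040 and 12871 in wild-type and 11970, 11216 and 10656 in *Rdh10* KO, and *Cct6a* had 13004, 13619 and 13855 against 11818, 12482 and 10543. Both were called lower without overlap of the groups, with log2 fold changes of −0.24 (limma, SE 0.07, adjusted p = 0.0237) and −0.22 (limma, SE 0.07, adjusted p = 0.0452). In *Cct5*, *Cct7* and *Cct8* the groups did not overlap either. Their log2 fold changes of −0.12, −0.14 and −0.21 did not pass the test (limma, adjusted p = 0.188, 0.137 and 0.0646). *Cct8* passed without *Rdh10* KO replicate 2 (limma, log2 fold change −0.28, adjusted p = 0.0283) but was at −0.13 without *Rdh10* KO replicate 3. *Cct7* was called lower in 2 of 19 other settings, with a log2 fold change down to −0.233. Over the same settings that of *Cct5* lay between −0.146 and −0.045. *Tcp1*, *Cct2* and *Cct4* had log2 fold changes between −0.05 and 0.03, with SE of 0.06 to 0.07, and the sign of *Tcp1* and *Cct4* was positive under quantile normalization. The 8 subunits summed to 108400, 113000 and 111200 normalized counts in wild-type and to 103900, 105500 and 97240 in *Rdh10* KO, a ratio of means of 0.922 with no overlap (exact permutation p = 0.1, two-sided, the smallest possible). Single libraries or the scaling decided both calls. The adjusted p of *Cct3* was 0.0695 and 0.151 without wild-type replicates 1 and 2 and 0.0583 without *Rdh10* KO replicate 2. That of *Cct6a* was 0.0916, 0.164 and 0.145 without wild-type replicates 1 to 3 and 0.0718 and 0.0931 without *Rdh10* KO replicates 1 and 3. Exons of *Tcp1*, *Cct6a*, *Cct7* and *Cct8* overlap genes on the other strand.

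Members differ in level by orders of magnitude, which per length can be set beside each other. In wild-type, *Hsp90ab1* was at 1540 ± 77.0 FPKM (SD, n = 3) and *Hsp90aa1* at 381 ± 16.5, and *Fkbp4*, *Hspa8* and *Hspd1* lay between 306 and 343. Lowest were *Hspa1a* at 0.104 ± 0.0220 FPKM, *Hspa1b* at 0.467 ± 0.207 and *Hspa2* at 1.36 ± 0.259. These levels use the length of all annotated exons of a gene, and with the longest principal transcript *Hsp90ab1* was at 1840 FPKM, *Hspa8* at 588 and *Hsp90aa1* at 456, so that the order below *Hsp90ab1* depends on the length taken. All members together took 1.99%, 2.04% and 1.99% of the reads in wild-type and 1.96%, 1.92% and 1.86% in *Rdh10* KO. Without *Hsp90ab1* the share was 1.52% to 1.56% in wild-type and 1.29% to 1.43% in *Rdh10* KO, while that of *Hsp90ab1* alone was 0.436% to 0.479% and 0.531% to 0.573%. The share of all members thus differed less between the groups than that of the members without *Hsp90ab1*.

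Libraries did not take part equally in either group. *Rdh10* KO replicate 3 was the lowest library of its group in 22 of the 37 members (59.5%) and in 11 of the 13 that were called lower, and it was also the lowest in 44.7% of all 4820 tested genes with a mean above 1000. *Rdh10* KO replicate 1 was the lowest in none of the 13 and the highest in 19 of the 37 members. In wild-type, replicate 1 was the lowest in 20 of the 37 members (54.1%), against 31.7% of the genes with a mean above 1000, and replicate 2 in 3. With *Rdh10* KO replicate 3 left out, 10 members were lower and 5 higher.

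Beyond the members, 98 genes of the same families and pathways were listed, of which 93 were tested, and 28 (30.1%) were lower and 5 (5.38%) higher, with a median log2 fold change of −0.16. Over all tested genes 9.12% were lower and 10.3% higher, and over those with a mean above 1000 it was 22.8% and 19.0%, while 29.6% of other J proteins and 25.0% of other HSP70 relatives were lower. Of 19 other HSP90 cochaperones, 9 were lower and 0 higher with limma (13 and 0 at an unadjusted p under 0.05, 9 and 0 with edgeR, 11 and 0 with DESeq2). Among these *Ahsa2*, a paralog of *Ahsa1*, had a log2 fold change of −0.50 (limma, SE 0.08, adjusted p = 0.000507), *Cdc37l1* of −0.47 and *Pih1d1* of −0.41. Both AHSA paralogs and both CDC37 relatives were thus lower. Of 10 genes for prefoldin, which hands actin and tubulin to CCT, and for cofactors of CCT, 4 were lower, with *Pfdn6* at −0.44 (limma, SE 0.07, adjusted p = 0.000662), *Pfdn4* at −0.41 and *Txndc9* at −0.31. Among 27 other J proteins tested, 8 were lower and 2 higher, and *Dnajc15* and *Dnajc19*, both of the mitochondrial import motor, had log2 fold changes of −0.53 and −0.51, *Dnajc24* of −0.43, *Dnajb14* of 0.56 and *Dnajc21* of 0.48. Of 12 other HSP70 relatives and exchange factors, 3 were lower and 1 higher. *Grpel1*, the exchange factor of mitochondrial HSP70, was at −0.39 (limma, adjusted p = 0.00276), *Hspbp1* at −0.43 and *Bag5* at −0.35, and *Bag4* was higher at 0.44.

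The mitochondrial proteases and folding helpers had 3 of 10 lower (*Htra2* at −0.30, *Clpp* at −0.26 and *Clpx* at −0.24 on the log2 scale). The log2 fold change was positive in 6 of the 10, with a median of 0.016. Over all tested genes 9.12% were lower and 10.3% higher, and 22.8% and 19.0% of those with a mean above 1000. *Hspb11*, which belongs to the small heat shock proteins by name and is known from cilia, was the only called gene of 5 tested in its list, at 173.9, 199.2 and 169.3 normalized counts in wild-type and 303.6, 322.2 and 303.6 in *Rdh10* KO (log2 fold change 0.78, SE 0.12, adjusted p = 0.00061, limma). Among the ubiquitin and antioxidant genes the polyubiquitin gene *Ubb* was lower at −0.23 (limma, adjusted p = 0.0204). None of 6 other heat shock factors and regulators was called by limma, and 1 was lower at an unadjusted p under 0.05 and with DESeq2, none with edgeR. For comparison, 16 chaperones of the endoplasmic reticulum had 5 lower and 3 higher, with a median log2 fold change of −0.10. *Dnajb11*, *Creld2* and *Manf* were lower at −0.36, −0.35 and −0.30, and *Sil1*, *P4hb* and *Canx* were higher at 0.53, 0.36 and 0.30. Like *Hspa8*, *Manf* and the uncalled *Sdf2l1* of this list are in the group of genes that the study picked on these samples. Their direction is not independent evidence.

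**Figure D5:**
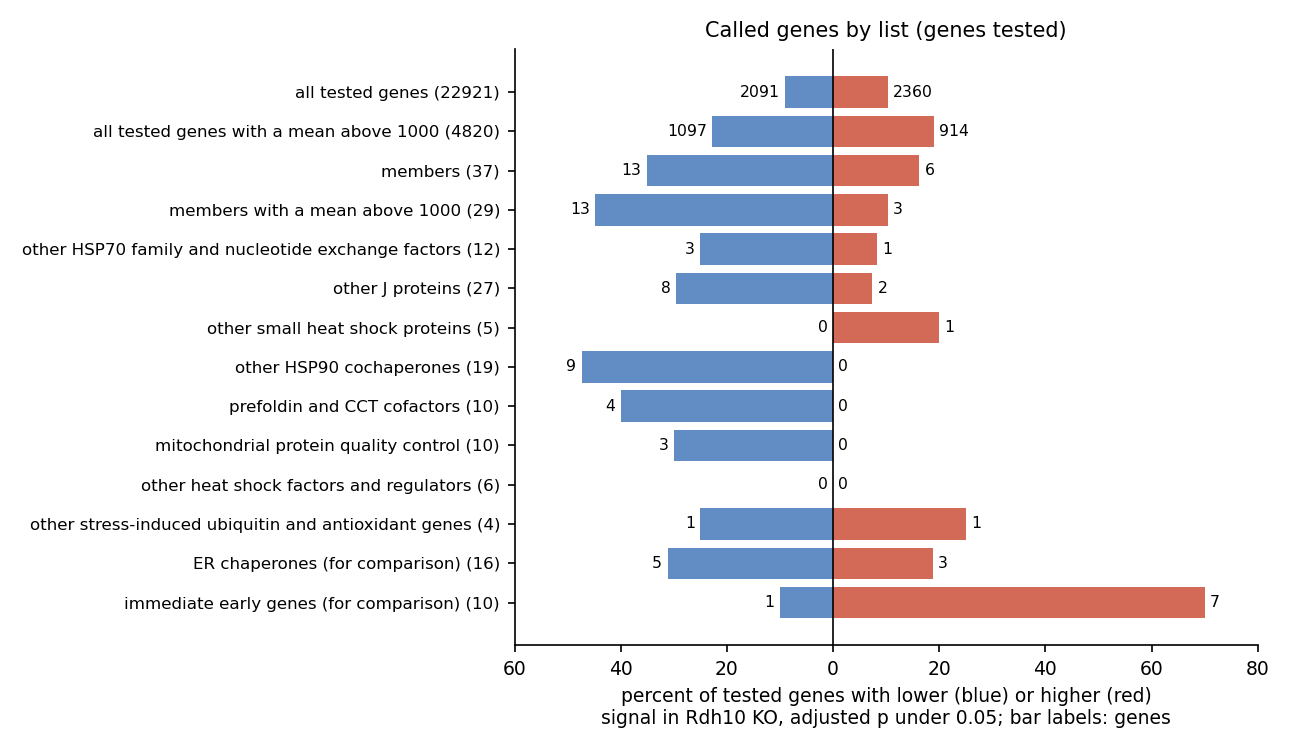
Share of tested genes with lower (left) and higher (right) signal in *Rdh10* KO at an adjusted p under 0.05, for all tested genes, the members and the lists of related and comparison genes. Numbers in brackets are genes tested, and numbers at the bars are genes called. Of the 37 members 13 were lower and 6 higher.

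Calls were also counted by matches to heat shock element letters, against 9.12% lower and 10.3% higher of all tested genes. Of tested genes with a mean above 1000, 22.8% were lower and 19.0% higher. Of the 16 members with a match 6 were lower and 3 higher, of the 14 with an entry and no match 5 were lower and 0 higher (2 higher at an unadjusted p under 0.05, 1 with edgeR and with DESeq2), and of the 7 without an entry 2 were lower and 3 higher. The 48 letters printed for *Hspa1a* and *Hspa1b*, both higher, are the same, and *Hsph1*, *Dnaja1*, *Fkbp4* and *Cdc37*, all lower, hold matches too. Whether a match goes with a direction of change was not tested.

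Some markers of other tissues that the dissection could hold also differed between the groups. Placenta and decidua markers summed to 0, 2.23 and 0 normalized counts in wild-type and to 61.6, 78.9 and 55.3 in *Rdh10* KO, with *Ascl2* the most abundant per length at a mean of 0.615 FPKM, and 3 of 4 were higher. *Prl2c2* had at most 3 reads in every library, and *Prl8a2* and *Prl3d1* had 0 in every wild-type library. The 3 endothelial markers were all higher, led per length by *Cdh5*, and summed to 1818 to 2147 in wild-type and to 2995 to 3090 in *Rdh10* KO. Heart markers, led by *Myl7*, summed to 27.8 to 45.0 and 19.3 to 23.5 with *Nppa* at or below 3 reads in every library. Of the forebrain markers, led by *Otx2*, 1 of 3 was higher (3526 to 3643 and 3452 to 5137 summed), while *Emx2* was not called with limma (log2 fold change −0.62, adjusted p = 0.0797) and 1 of 3 was lower with edgeR and 0 with DESeq2. Of the surface ectoderm markers, led by *Krt18*, 1 of 4 was higher (4594 to 5036 and 4542 to 5400). Blood markers had 0 of 5 called by limma, edgeR or DESeq2, at an unadjusted p under 0.05 as well. The part of these tissues in the differences of the chaperone genes was not tested.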

How the data were processed

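For RNA-seq of 6 libraries, the authors made directional libraries from polyadenylated RNA, aligned reads to mm10 with TopHat, estimated abundance by Expectation-Maximization and name FPKM as the normalization and the edgeR likelihood ratio test for differences. The deposited signal is not FPKM. In every library 100% of values are whole reads (tolerance 0.1 read) divided by 1 factor per library, 0.850 to 1.40, which equals the median-of-ratios factor, so the values were used as normalized counts, with depth of 16392777 to 27101025 reads. A line that names no gene was left out (1 of 26438). Expectation-Maximization, which the authors name, divides reads shared by copies. The deposited values are whole reads, so whether and how shared reads were divided cannot be seen from them and was not tested. Whether strand was used in counting is not given in the sources used here.

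Genes with a mean above 0.5 went into limma 3.58.1 (R 4.3.3) as log2(value + 0.1), fitted by lmFit and eBayes with trend ( Benjamini-Hochberg over 22921 genes). Alternatives used DESeq2 1.42.0 and both the likelihood ratio and quasi-likelihood forms of edgeR 4.0.16 for recovered reads, other pseudocounts, filters and scalings, a correction for GC content and length, a replicate block, and each library left out. Sums of copies, lengths of principal transcripts and the limit of 1000 were chosen after seeing the data. FPKM was computed from reads and GENCODE release 21 (GRCm38) exons. Tests were tried on simulated data. Members and lists were chosen with earlier results of these data known.

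Named are all members, with values in every library for called ones and for 9 fixed genes, and of other lists the called genes with a mean above 10, at most the 3 lowest and 3 highest, *Rdh10*, and the leading or absent markers. Names outside this rule (*Gm15459*, *Rax*, *Six3*, *Emx2*, *Alx1*, *Alx4*, *Sdf2l1*) were chosen after values were seen. Python 3.11.15 with pandas 2.3.3, numpy 2.4.6 and matplotlib 3.10.9 was used for tables and plots.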

Additional observations from a re-analysis of the deposited data

How the results depend on the processing

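Over 19 other settings and 37 members (703 values), 569 kept direction and side of the threshold, 91 fell short of it, 40 newly passed it and 3 turned sign, all uncalled (*Tcp1* to 0.031 and *Cct4* to 0.046 under quantile normalization, *Cct2* to −0.004 without *Rdh10* KO replicate 2). With single libraries left out, *Cct2*, at 0.029 with all, lay between −0.004 and 0.079. No called member changed direction in any of them. Members lower numbered 13, and 0 with limma without trend, 0 with the 0.85 cut-off, 6 to 15 with single libraries left out, 9 under quantile normalization and 18 under the GC content and length correction. Members higher numbered 6, and 1 without trend, 2 with the cut-off 3 to 6 with single libraries left out, and 5 under both quantile normalization and the GC content and length correction. Past the cut-off 2 were higher, and 1 without trend. All genes numbered 2091 lower and 2360 higher, against 197 and 448 without trend and 992 to 2068 and 1491 to 2139 with single libraries left out. The GC content and length correction moved the higher share of calls from 53.0% to 39.9% (2942 lower, 1954 higher). Fewer libraries leave fewer degrees of freedom, and other causes of these changes were not tested.

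With a replicate block, 7 members were lower and 3 higher, and 1387 genes lower and 1715 higher. Deviations of same-numbered libraries had correlations of −0.026, −0.035 and −0.074 over 15272 genes, and those of the other pairs lay between −0.036 and 0.066. With 3 libraries per group these values cannot show whether same-numbered libraries shared a litter, a day or a batch. The labels give only the replicate number.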
